A study of Mus musculus with 18 samples.

Results

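The class II olfactory receptor cluster of mouse chromosome 2 was examined for open chromatin in embryonic stem cells with altered H3K9 methyltransferase genes. Its members are the protein-coding genes of the GRCm38 annotation that carry an Olfr symbol and start between 85000000 and 91000000 on chromosome 2. The rule found 222 genes, out of 1108 Olfr genes and 21774 protein-coding genes in all. They run from Olfr987 (85330967 to 85331896) to Olfr1274 (90400640 to 90401674), a span of 5.07 Mb. Of these genes, 207 also carry a name of the MOR system, which numbers mouse receptor families by sequence. Their families run from MOR172 to MOR264, whereas 106 named Olfr genes in the class I interval of chromosome 7 run from MOR1 to MOR42, so the class II label fits the annotation.

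Olfactory receptors are G protein-coupled receptors that detect odorants in the sensory neurons of the nose. Each neuron expresses a single receptor gene from a single allele, and the other receptor genes lie in compact chromatin that carries H3K9me3 and H4K20me3. In those neurons, distant enhancers bound by Lhx2, Ebf proteins and Ldb1 act on the chosen gene. Embryonic stem cells are not known to use these genes as odorant receptors, and the H3K9 methyltransferases Setdb1, Suv39h1 and Suv39h2 help to lay down H3K9me3 in many cell types.

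ATAC-seq, which marks open DNA by transposase insertion, was run on 18 libraries of the mouse embryonic stem cell line dTKO, grown with LIF and serum on gelatin. Cells were collected 0, 3, 6, 12, 24 and 48 h of treatment with 2 agents together, with 3 libraries per time, and 0 h is the baseline. The agents were auxin (100 µg/ml) and dTAG13 (0.5 µM). All libraries share the genotype Suv39h1fl/fl ; Suv39h2-/- ; Setdb1fl/fl, so Suv39h2 is missing at 0 h as well. The labels do not say which proteins the 2 agents degrade, nor whether dTKO is 1 clone. The values are 166066 merged peaks given as positions, with no library, count or height. Times could therefore not be compared, depth is unknown, no value has an error between replicates, and the intervals given for shares cover counting error only. As a check of the cell type, all 10 genes of a list of stem cell markers, among them Pou5f1, Nanog and Sox2, had a peak within 500 bp of an end, whereas 5 of 10 fibroblast genes and 8 of 10 olfactory sensory neuron genes had one. The share over all protein-coding genes is 71.4%, so this check separates cell types weakly.

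The sequence around the annotated start is shown for the members at the extremes of openness. Olfr1166 is the member with a peak at an end, Olfr52, Olfr1055 and Olfr1238 are those with a peak within 1 kb, and Olfr1018 is the member farthest from any peak. Each run holds 250 bases before the annotated start and 50 bases from it onward. It is read 5′ to 3′ on the strand of the gene (all but Olfr1018 lie on the minus strand), from RefSeq on GRCm38.p6. Capitals mark TATAAA, the TATA box, and TAATTA or TAATTG, sites of the kind bound by Lhx2 and other homeodomain proteins, on either strand.
Olfr1166: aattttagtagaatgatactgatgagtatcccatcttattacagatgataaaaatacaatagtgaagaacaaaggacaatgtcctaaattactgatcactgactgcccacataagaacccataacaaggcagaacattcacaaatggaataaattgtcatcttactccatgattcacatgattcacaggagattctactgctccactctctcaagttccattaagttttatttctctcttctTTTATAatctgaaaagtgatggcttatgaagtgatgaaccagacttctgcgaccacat
Olfr52: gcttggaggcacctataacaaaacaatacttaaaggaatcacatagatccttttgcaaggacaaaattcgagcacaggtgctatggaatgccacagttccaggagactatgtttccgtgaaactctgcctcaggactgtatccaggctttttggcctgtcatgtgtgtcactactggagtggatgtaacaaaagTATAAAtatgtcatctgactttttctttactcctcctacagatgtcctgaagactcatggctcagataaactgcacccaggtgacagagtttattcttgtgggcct
Olfr1055: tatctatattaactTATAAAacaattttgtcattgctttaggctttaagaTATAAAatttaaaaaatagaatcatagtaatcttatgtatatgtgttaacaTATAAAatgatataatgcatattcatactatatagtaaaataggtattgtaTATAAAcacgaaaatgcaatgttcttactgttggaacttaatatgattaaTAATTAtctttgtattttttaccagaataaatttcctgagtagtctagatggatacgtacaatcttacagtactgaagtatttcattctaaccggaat
Olfr1238: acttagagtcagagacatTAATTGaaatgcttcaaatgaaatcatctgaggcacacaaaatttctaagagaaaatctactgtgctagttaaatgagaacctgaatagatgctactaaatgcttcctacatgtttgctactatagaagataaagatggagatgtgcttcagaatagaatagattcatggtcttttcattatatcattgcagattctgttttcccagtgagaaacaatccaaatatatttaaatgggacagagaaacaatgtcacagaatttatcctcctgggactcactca
Olfr1018: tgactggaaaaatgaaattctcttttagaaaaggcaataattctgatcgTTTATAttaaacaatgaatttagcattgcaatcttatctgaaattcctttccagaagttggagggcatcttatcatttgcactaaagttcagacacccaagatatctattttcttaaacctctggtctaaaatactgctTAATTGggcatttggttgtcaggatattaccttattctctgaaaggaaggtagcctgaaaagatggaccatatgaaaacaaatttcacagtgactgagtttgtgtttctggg
These 5 windows hold 0 to 3 CG dinucleotides each, and C plus G make up 23.3% to 43.3% of their bases. The windows lie at chr2:88124944-88125243 (Olfr1166), chr2:86182060-86182359 (Olfr52), chr2:86347715-86348014 (Olfr1055), chr2:89407028-89407327 (Olfr1238) and chr2:85822723-85823022 (Olfr1018). The nearest peaks lie outside all 5 windows, 1.69 kb from that of Olfr1166, 0.463 kb from Olfr52, 1.78 kb from Olfr1055, 1.79 kb from Olfr1238 and 127 kb from Olfr1018.

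Open chromatin was almost missing from the ends of these genes. A peak lay within 500 bp of an annotated end in 1 of 222 members (0.45%, 95% Wilson interval 0.0796 to 2.51), against 71.4% of all protein-coding genes, a share of genes that counts a peak at either end. Within 250 bp the count was also 1 of 222, against 68.8% of all protein-coding genes. No member had a peak over its body, which at 0 of 222 allows a share of up to 1.35% (3 counts of the total), whereas 81.6% of all protein-coding genes had one. The other Olfr genes had an open end in 54 of 886 cases (6.09%, 4.70 to 7.87) and a peak over the body in 54. The same count was 4 of 110 in the class I interval of chromosome 7 (3.64%, 1.42 to 8.98) and 0 of 65 in the other Olfr genes of chromosome 2. No test was made between these lists, since neighbouring genes share their surroundings and the lists were chosen with results of these data known.

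The exception was Olfr1166 (MOR174-6, 88123360 to 88124993, minus strand). Its peak of 611 bp lay at 88122647 to 88123257 and ended 103 bp short of the lower-coordinate end of the gene. On the minus strand that end is the 3′ end, and the nearest peak on the upstream side of its start lay 47.9 kb away. The annotated 5′ end could be placed for 186 members from their RefSeq promoter entry, and 0 of them had a peak within 500 bp of it, which allows up to 1.61% by 3 counts of the total and 2.02% by the upper 95% Wilson limit. Of all protein-coding genes with such an entry 70.9% had one, and of the other Olfr genes 24 of 757 (3.17%, 2.14 to 4.67). Within the chromosome 2 cluster the count of open starts is therefore 0 even where the count of open ends is 1.

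The members next in order fell outside the window. Olfr52 (86181150 to 86182109) had its nearest peak 0.713 kb away, 236 bp wide, on the upstream side of its start. Olfr1055 (86346724 to 86347764) had a peak of 729 bp at 0.794 kb and Olfr1238 (89406130 to 89407077) a peak of 709 bp at 0.895 kb, both beyond the 3′ end. The nearest peaks of Olfr1028 and Olfr1198 lay 1.31 and 1.36 kb away. Olfr52 was the closest of the 186 members on the upstream side, followed by Olfr1248 at 1.37 kb, Olfr1128 at 1.42 kb and Olfr1131 at 1.91 kb. With a window of 2000 bp the count was 13 members, Olfr1166 included (5.86%), against 79.7% of all protein-coding genes. At the 5′ end the count was 7 of 186, and no share over all genes is given for that window.

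Most members lay far from any peak. The distance from a gene end to the nearest peak ran from 0.103 to 127 kb, with a median of 18.2 kb and quartiles of 9.29 and 33.5 kb. The median was 10.6 kb over the other Olfr genes, 13.9 kb in the class I interval, and 0 kb over all protein-coding genes, since over 50% of them carry a peak across an end. More than 5 kb separated 191 members (86.0%) from any peak, against 14.4% of all protein-coding genes, and more than 10 kb separated 161 (72.5%), against 9.8%. Beyond 50 kb were 28 members (12.6%), against 1.92% of all protein-coding genes and 3.39% of the other Olfr genes. The members beyond 10 kb are spread along the cluster, as the plot of distance by position shows.

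**Figure D1:**
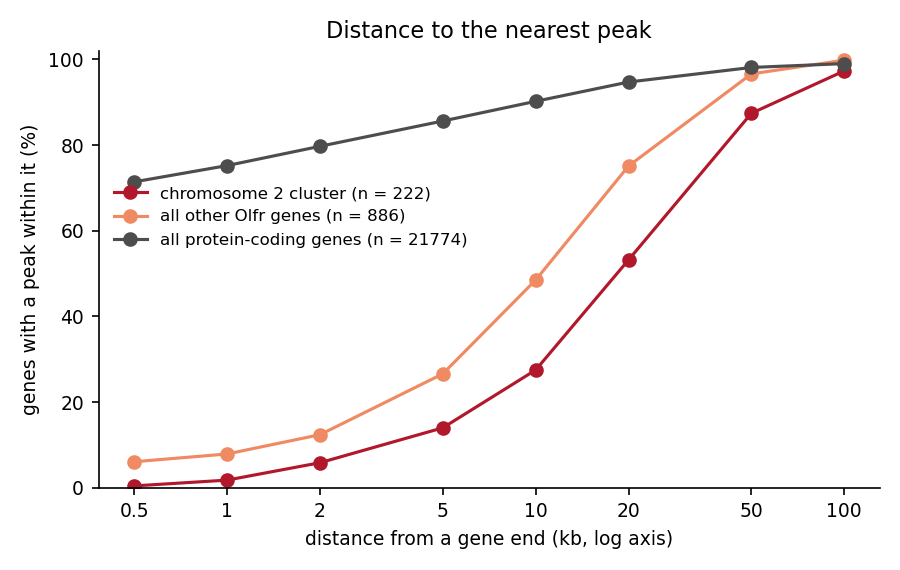
Share of genes (%, vertical axis) with a peak within a given distance of either annotated end (kb, log axis), for the chromosome 2 cluster, the other Olfr genes and all protein-coding genes. At 10 kb the cluster stands at 27.5%, the other Olfr genes at 48.5% and all protein-coding genes at 90.2%, and the lines come together at 100 kb.

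The farthest members sat together in the middle of long closed stretches. Olfr1018 (85822973 to 85823908) was 127 kb from its nearest peak and its neighbour Olfr1019 (85840857 to 85841789), a receptor for the fox odour component trimethylthiazoline in mice, 112 kb. Olfr1016 (85799339 to 85800268) was 103 kb away. All 3 lay in a peak-free stretch of 257 kb (85696131 to 85953344) that holds 14 members from Olfr1009 to Olfr1028 and is number 10 in length among the peak-free stretches of chromosome 2. Olfr1008 stands before that stretch and Olfr1029 after it, with nearest peaks at 5.29 and 14.9 kb. Olfr1204 (88851952 to 88852881) and Olfr1206 (88864607 to 88865530), at 107 and 104 kb, lay in the next longest stretch, of 225 kb (88744604 to 88969290) with 12 members from Olfr1198 to Olfr1212, between Olfr1197 and Olfr1213. Another stretch, of 176 kb (86843545 to 87019139) held 8 members from Olfr1095 to Olfr1102, between Olfr1094 and Olfr1104.

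In all, 12 peak-free stretches of at least 100 kb reached into the cluster, of 214 on chromosome 2. They hold 89 of the 222 members and have a summed length of 1840 kb, equal to 36.2% of the span, with 1 of them starting before Olfr987. The same values for other genes or for all of chromosome 2 are not given, so how unusual these are cannot be judged. The median stretch between neighbouring peaks was 31.5 kb in the cluster and 6.42 kb over chromosome 2. The first member, Olfr987, had its nearest peak at 30.3 kb, on the side away from the cluster, and the last, Olfr1274, at 11 kb.

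**Figure D2:**
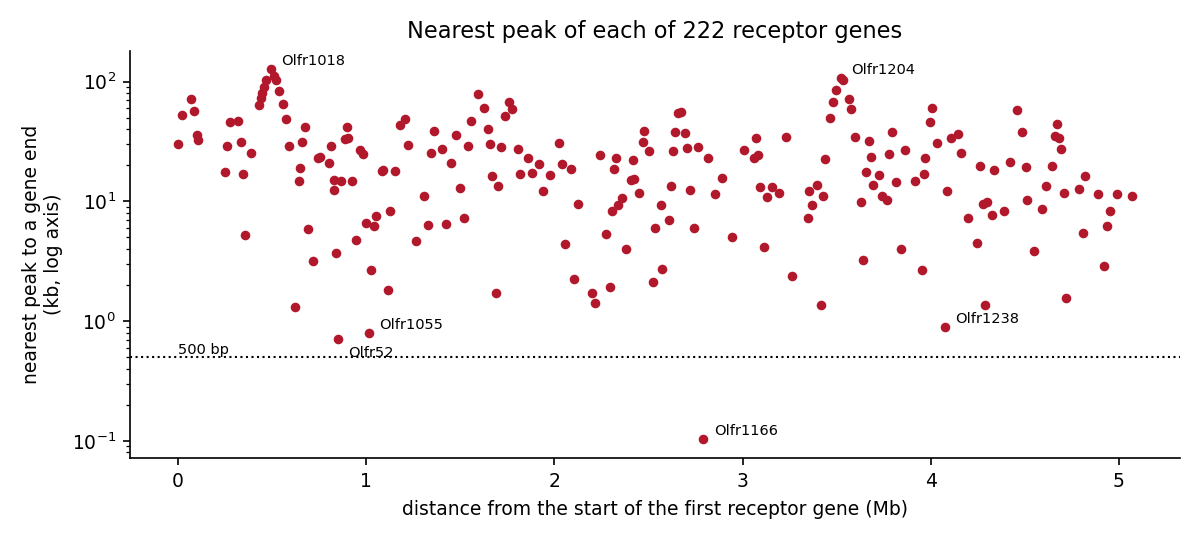
Distance from a gene end to the nearest peak (kb, log axis) for each of the 222 receptor genes, 1 point per gene, placed by its distance from the start of the first receptor gene (Mb). Olfr1166 at 0.103 kb is the sole point under the dotted line at 500 bp, and the points climb to 127 kb at Olfr1018 and 107 kb at Olfr1204.

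Around the annotated starts there was no local rise. In steps of 100 bp from 20 kb upstream to 20 kb downstream, none of the 186 members with a known strand had a peak over any position from 0.7 kb upstream to 1.7 kb downstream of the start. Mean coverage was 1.70% of members between 20 and 10 kb upstream, 0.498% between 5 and 1 kb upstream, 1.49% between 1 and 5 kb downstream and 1.63% between 10 and 20 kb downstream. Over all protein-coding genes coverage was 66.3% at the start itself and 8.03% between 20 and 10 kb upstream. The other Olfr genes had 1.06% at the start and 3.29% between 20 and 10 kb upstream. A peak within 5 kb was present on the upstream side of the start in 9 members (4.84%) and on the downstream side, gene body included, in 17 (9.14%). The shares were 11.4% and 14.7% of the other Olfr genes and 75.7% and 76.1% of all protein-coding genes. In these shares a peak over the start counts on both sides. The median distances of the members were 34.5 and 32.2 kb.

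**Figure D3:**
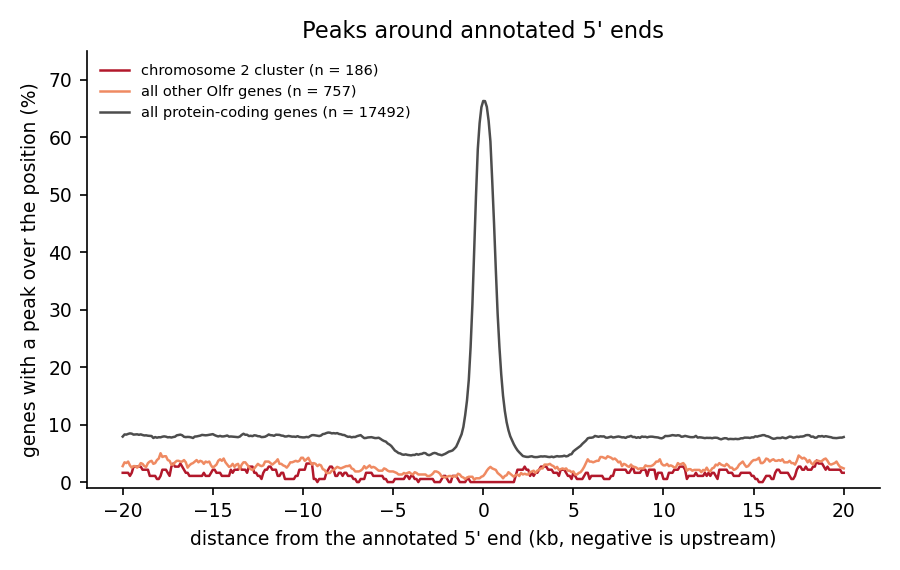
Share of genes (%) with a peak over each position around the annotated 5′ end (kb, negative is upstream), for 186 members, 757 other Olfr genes and 17492 protein-coding genes. The line of the chromosome 2 cluster is at 0 from 0.7 kb upstream to 1.7 kb downstream, where the line of all protein-coding genes reaches 66.3%.

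The annotated start may differ from the start of the transcript. Of the 222 gene models, 168 have a length that is a multiple of 3, and the median length is 945 bp. In 130 of 187 promoter windows an ATG codon begins at the annotated start itself. Olfactory receptor genes commonly have non-coding first exons upstream of a coding exon, so a promoter can lie outside the 500 bp window. The upstream distances above bear on this. Of 186 members, 22 (11.8%) had a peak within 10 kb upstream of the start and 53 (28.5%) within 20 kb. The shares were 26.3% and 49.9% of the other Olfr genes and 81.2% and 87.7% of all protein-coding genes. A peak over the start itself counts in these shares. A peak on the upstream side can also belong to a neighbour.

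Open chromatin did exist in the cluster, between the genes. From the first to the last member 111 peaks were called, and 110 of them lay between receptor genes, more than 500 bp from any member. The density of all 111 peaks was 21.9 per Mb (18 to 26.4, 95% Poisson interval of the count), against 64.6 per Mb over chromosome 2. The 111 peaks cover 1.46% of the span, against 4.54% of chromosome 2. The distance from a peak to its nearest member had a median of 7.79 kb, quartiles of 4.0 and 14.8 kb and a maximum of 33.5 kb, and 75 different members were the nearest of some peak. Where the strand of that member is known, 43 peaks lay on its upstream side and 52 on its downstream side.

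The peaks of the cluster were about as wide at the median as peaks elsewhere. Their median width was 585 bp, with quartiles of 346 and 835 bp, and that of all peaks was 578 bp, with quartiles of 366 and 910 bp. Peaks of 1 kb or more made up 15.3% in the cluster (17 of 111) and 20.7% over the genome. The widest, of 2325 bp, lay 6.26 kb from Olfr1057 at 86365880 to 86368204. The other 2 above 2 kb were 1 of 2096 bp, 14.9 kb from Olfr153, and 1 of 2046 bp, 4.38 kb from Olfr1122.

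Few gaps between neighbouring receptor genes held a peak. The counts here are of the 110 peaks more than 500 bp from any member. They leave out the peak by the end of Olfr1166, which lies in the gap from Olfr1164. Of 220 gaps, 68 (30.9%) held at least 1, 46 of them exactly 1 and 22 of them 2 or more. Gaps of 50 kb or more held a peak in 7 of 10 cases, those of 20 to 50 kb in 42 of 80, those of 10 to 20 kb in 16 of 86 and those under 10 kb in 3 of 44. Per length, the gaps of 50 kb or more held 33.0 peaks per Mb, those of 20 to 50 kb held 26.5 peaks per Mb, those of 10 to 20 kb held 14.0 and those under 10 kb held 15.7. Between genes that point the same way the density was 28.6 peaks per Mb in 122 gaps. It was 13.3 in 20 gaps where the genes point at each other and 13 in 18 where they point apart, on counts of 4 and 6 peaks. Gaps beside a member of unknown strand are left out. The median lengths of these 3 sets were 18.4, 13.2 and 23.3 kb, and the first set includes the gap with the Pramel genes, with 7 peaks. Orientation was not separated from gap length, and no test was made.

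The fullest gap was that around the Pramel genes. Between Olfr1126 (87457167 to 87458111) and Olfr153 (87532035 to 87532958), 73.9 kb apart, lay 7 peaks. This gap holds Pramel7, known from early embryos and embryonic stem cells, and Pramel6, of the same family. A peak of 258 bp lay 0.235 kb from the 3′ end of Pramel7 (87489088 to 87492418), and the nearest peak to Pramel6 (87506565 to 87510865) was 4.19 kb away. The nearest peaks of the flanking receptors lay at 9.50 kb for Olfr1126 and 1.70 kb for Olfr153. Next came the gaps from Olfr1189 to Olfr1193 (85.1 kb) and from Olfr1565 to Olfr1274 (71.3 kb), with 5 peaks each and no other protein-coding gene. The remaining non-receptor gene inside the cluster, Fads2b (85484092 to 85518935), a fatty acid desaturase family gene, had its nearest peak 12.0 kb away.

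Of the 110 peaks between receptor genes, 99 overlapped no annotated gene of any kind. The other 11 lay over pseudogenes (7 peaks) or long non-coding RNA genes (4 peaks). All 3 long non-coding RNA genes of the cluster had a peak at an end (100%, 43.9 to 100). They are Gm52520 (85958281 to 85964241), Gm38718 (90193044 to 90195174) and Gm39869 (90351519 to 90353649). The receptor nearest to the peak of Gm38718 is Olfr1506, and that nearest to the peak of Gm39869 is Olfr1565. Both peaks lie on the downstream side, and the promoter windows of these receptors are identical. Gm38718 and Gm39869 may therefore not be independent, which was not tested, whereas the interval treats all 3 genes as independent. Receptor pseudogenes had an open end in 1 of 68 cases (1.47%, 0.260 to 7.87), Olfr1069-ps1, with a median distance of 19.7 kb to the nearest peak. The other pseudogenes had one in 4 of 35 cases (11.4%, 4.54 to 26.0). Among them were Nlk-ps1 with a peak of 1328 bp, Gm1826 with 1 of 2046 bp and Gm13736 with 1 of 1003 bp. No share over all long non-coding RNA genes or pseudogenes of the genome is given here, so these counts have no background.

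Peak density was low along the whole length of the cluster. In steps of 250 kb from the start of Olfr987, each of the 20 full steps inside the cluster held 1 to 12 peaks, with a median of 5. The median was 13 over 9606 steps of that length on the autosomes and 13 on chromosome 2, and all 20 lay at or below it. A step count of 5 or fewer was found in 19.9% of the autosomal steps, so a density this low is not rare. The 1 Mb before the first member held 110 peaks per Mb and the 1 Mb after the last 109. Inside, the lowest step held 1 peak and 13 members, and the highest held 12 peaks, 9 members and both Pramel genes. Among the non-receptor protein-coding genes that start in the same interval but outside the receptor span, 14 of 15 had an open end, against 71.4% of all protein-coding genes, such as Ssrp1, a histone chaperone gene, with a peak of 1581 bp and Ptprj, a receptor phosphatase gene, with 1 of 2250 bp. Nup160, the exception, had its nearest peak at 0.572 kb.

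**Figure D4:**
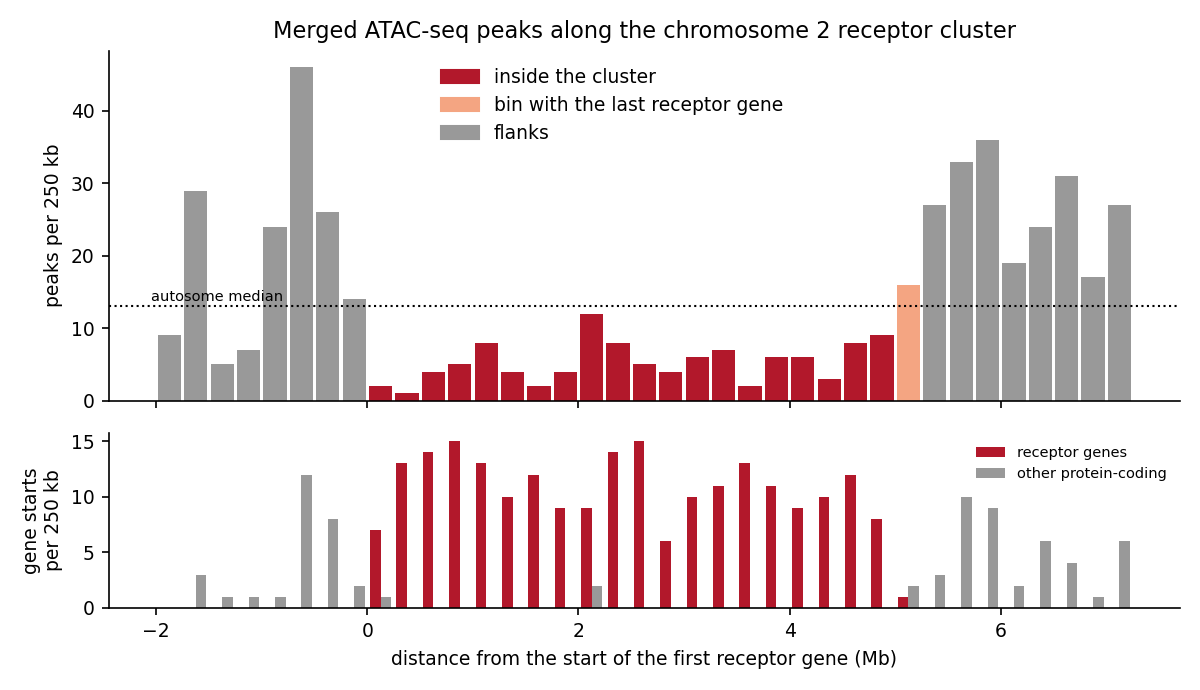
Peaks per 250 kb (top) and gene starts per 250 kb (bottom) against the distance from the start of the first receptor gene (Mb), with bins inside the cluster in dark red, the bin of the last receptor gene in light orange and the flanks in grey. The 20 inside bins hold 1 to 12 peaks, all under the dotted autosome median of 13, the 8 bins before them 5 to 46, and the bins from 5.0 Mb on 16 to 36.

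Among large receptor clusters, that of chromosome 2 had the lowest density of peaks. With Olfr genes joined over gaps of up to 1 Mb there were 15 clusters of at least 20 genes, and the other 14 held 25.9 to 136 peaks per Mb, with a median of 44.5. The closest was a cluster of 37 genes on the same chromosome (Olfr1275 to Olfr1318, 25.9 per Mb on 24 peaks). Next was 1 of 25 genes on chromosome 16 (Olfr172 to Olfr209, 26.6 per Mb on 16 peaks). The first of these values lies within the 18 to 26.4 per Mb interval of the chromosome 2 cluster. Some clusters under 20 genes had lower densities, such as Olfr1416 to Olfr12 (8 genes, 14.2 per Mb) and Olfr55 to Olfr63 (4 genes, 21.4 per Mb). In 3 of the 14 no gene had an open end, a lower share than the 0.45% on chromosome 2, and in the others the share reached 20.8%. The median distance to a peak ran from 4.74 to 18.6 kb in the 14, and 1 of them exceeded the 18.2 kb of the chromosome 2 cluster. These values order the clusters in this peak list, and the order was not tested.

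Receptor families of the cluster spanned a wide range of distances to a peak. The 207 members with a MOR number fall into 43 families, 18 of them with 5 or more members here, and the family medians of these 18 ran from 6.20 to 77.1 kb. MOR227 was lowest (5 genes, 2.87 to 16.3 kb) and MOR213 highest (6 genes from Olfr1006 to Olfr1016, 16.9 to 103 kb). MOR233 with 17 genes had a median of 16.6 kb, MOR231 with 14 genes 18.8 kb and MOR264 with 14 genes 17.9 kb. MOR174, the family of Olfr1166, had 14 genes with a median of 19.3 kb, and its other 13 members had no open end. It includes the eugenol receptor Olfr73 and Olfr74, named here after their values were seen, with nearest peaks at 27.9 and 38.0 kb. Genes of a family mostly lie side by side and share their peaks, so they are not independent, and family cannot be told apart from position.

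The promoter windows of the members were poor in CG. They are placed at the annotated start, which may differ from the start of the transcript. Over 187 windows of 186 genes the median content of C plus G was 32.0% (18.3 to 46.7), against 36.7% over 760 windows of the other Olfr genes and 56.3% over 21263 windows of all protein-coding genes. The median count of CG dinucleotides was 1, and 67 windows (35.8%) had none, against 4.63% of all windows. The other Olfr windows were nearly the same in this, with a median of 1 and 32.8% with none. A peak overlapped 0 of the 187 windows and 67.9% of all windows. Among protein-coding genes that are no Olfr, the share of windows with a peak was 6.44% at 0 CG, 9.07% at 1 and 12.3% at 2, and 99.5% at 21 or more. At 0, 1 and 2 CG the members had 0 of 67, 0 of 70 and 0 of 33, with upper 95% Wilson limits of 5.42%, 5.20% and 10.4%. The other Olfr windows had a peak in 0.402%, 0.403% and 1.40% at these counts, within the limits of the members.

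**Figure D5:**
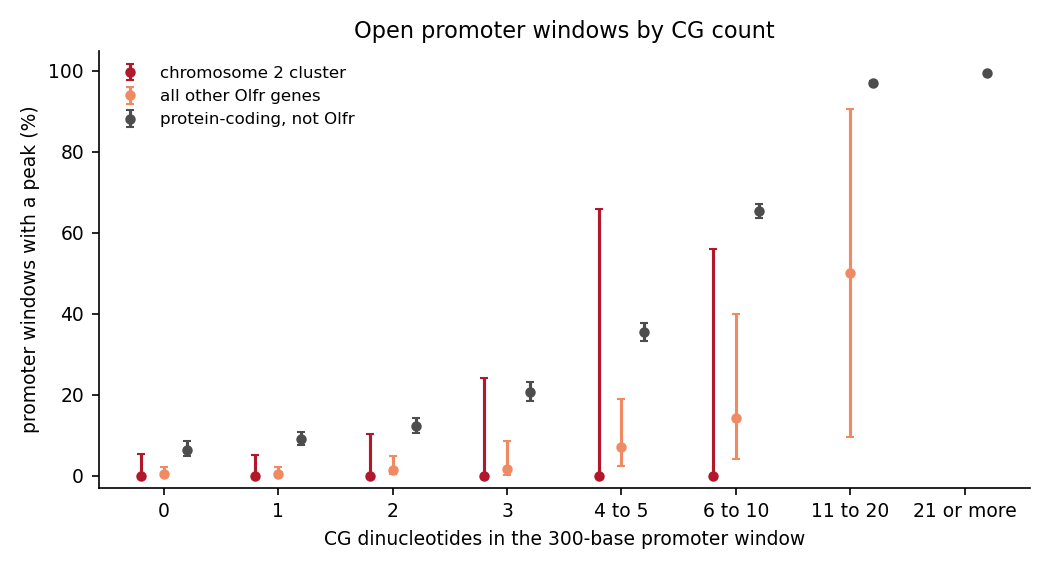
Share of 300-base promoter windows that a peak overlaps (%), by the number of CG dinucleotides in the window, with 95% Wilson intervals as bars, for the chromosome 2 cluster, the other Olfr genes and protein-coding genes that are no Olfr. The cluster stands at 0 in every class it fills, and the genes that are no Olfr climb from 6.44% at 0 CG to 99.5% at 21 or more.

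Motifs of the receptor enhancers were counted in the same windows, on both strands. The Ebf site, also called the Olf1 site, was in 0 of 187 windows of the members, which allows up to 1.60% by 3 counts of the total and 2.01% by the upper Wilson limit, in 0.658% of the other Olfr windows and in 0.959% of all windows. A looser form with more free positions includes every match of the stricter one. It was in 2 windows (1.07%, 0.294 to 3.82), in 3.29% of the other Olfr windows and in 4.76% of all. The 2 windows are those of Olfr1506 and Olfr1565, which are identical in sequence and so not independent. The homeodomain sites TAATTA and TAATTG were in 24.6% and 28.9% of the members' windows, against 17.1% and 21.8% of the other Olfr windows and 4.53% and 6.83% of all windows. TATAAA was in 55.1% of the members' windows, against 37.6% of the other Olfr windows and 12.6% of all. These 3 motifs hold few or no C and G, and the windows of the cluster differ from all windows in base content by the values above. A match is a run of letters and not a bound site. In 130 of the 187 windows an ATG codon begins at the annotated start. Such a window may miss the promoter and its motifs, so these counts do not show what the promoters hold or lack.

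Genes whose products act with the receptors were counted in the same way. Their shares are to be read against the 71.4% of all protein-coding genes with a peak at an end. Of 16 genes of olfactory signal transduction, 10 had a peak at an end (62.5%, 38.6 to 81.5), among them Gnal, the olfactory G protein alpha subunit, Adcy3, the adenylyl cyclase, Omp, the marker protein of mature olfactory neurons, and Cnga4, a channel subunit. The channel subunit genes Cnga2 and Cngb1 and the receptor transport genes Rtp1 and Rtp2 had none, with nearest peaks at 12.6, 2.79, 3.59 and 1.53 kb. Of 15 genes for regulators of receptor choice, 14 had an open end (93.3%, 70.2 to 98.8), including Lhx2, Ldb1, Ebf1, Ebf2, Ebf3 and Ebf4. The exception, Rad21 of cohesin, had its nearest peak at 0.956 kb. All 9 genes of H3K9 methylation and its readers had an open end (100%, 70.1 to 100), among them Setdb1, Suv39h1 and Suv39h2. Markers of olfactory sensory neurons, a list that shares 8 genes with the transduction list, were open in 8 of 10 cases (49.0 to 94.3%), a share near that of all protein-coding genes. An open end shows neither expression nor loss of the protein, and these lists were also chosen with earlier results known.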

How the data were processed

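The deposited values are positions (chromosome, start, end) of 1 list of 166066 merged ATAC-seq peaks over 18 libraries, and the authors gave no count, height or score with them. Per the submitters' processing notes, the tools were MACS2 2.2.7.1, Bowtie2 2.4.2 and Trimmomatic 0.36, and the builds named are GRCm38 and mm10, with no role or order. The peak threshold, the merging rule and the treatment of duplicates, repeats and insertion offsets are not given in the sources used here. They could change which peaks exist, above all where reads cannot be placed uniquely. As depth is unknown, an absent peak means that none was called.

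The 165744 peaks on assembled chromosomes were converted to positions counted from 1 and compared with RefSeq genes of GRCm38.p6, leaving out rows with scaffold or patch coordinates (starts in the first 3 Mb of a chromosome, or 90 kb of Y). A gene end was open where a peak overlapped by at least 1 bp a window reaching 500 bp to each side of its annotated start or its end. Strand and promoter sequence came from the RefSeq promoter table, matched by gene ID for 186 of 222 members. The 36 others enter no strand result. MOR families were read from gene synonyms. Protein sequences were not used here. The members and lists were chosen with earlier results of these data known, so no set test was made. The genes named are those with a peak at an end, the 5 next closest, the 5 farthest, the first and last, those beside the 3 longest peak-free stretches and the 3 fullest gaps, non-receptor genes inside the cluster and list genes; further names were added to describe single values. Scripts were tested on simulated peaks. Computation used scipy 1.17.1, pandas 2.3.3, numpy 2.4.6, matplotlib 3.10.9 and Python 3.11.15. No column of values per sample was present.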

Additional observations from a re-analysis of the deposited data

How the results depend on the processing

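Of 17 alternative values, 11 stayed close to the values reported. With windows of 2000 bp, the members with a peak at an end numbered 13 in place of 1, against 79.7% of all protein-coding genes. Those with a peak at the 5′ end numbered 7 in place of 0, with no share over all genes given. With peaks wider than the median of 578 bp alone, the intergenic peaks numbered 56 in place of 110, the median distance to a peak was 34.1 kb in place of 18.2 kb, and the density was 11.2 peaks per Mb in place of 21.9, against 32.4 wide peaks per Mb of chromosome 2. Fewer peaks enter this setting by construction. Taken from 85000000 to 91000000, which includes the flanks, the density was 31.3 peaks per Mb. A window of 250 bp, a minimum overlap set at 200 bp, and the rule widened to all 287 Olfr genes of chromosome 2 left 1 gene with an open end. No paired analysis was possible because the peak list holds no value per library, and for the same reason no library could be left out.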

Other observations

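Some members have nearly the same sequence around their start. Each of the 187 promoter windows was aligned with every window of another Olfr gene, and the closest match had a median identity of 57.7%. In 15 windows it was at least 90%, and in 34 at least 80%, always with another gene of the chromosome 2 cluster. Olfr1506 and Olfr1565 have identical windows (100%), and Olfr1168 and Olfr1173 share 98.3% of bases. Their values are uncertain, since reads from such copies could be split between them or dropped. The part of such copies in the low peak density was not tested.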
